A study of Mus musculus with 14 samples.

Results

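The enzymes described here modify collagen and link it into fibres: 3 prolyl 4-hydroxylase alpha subunits (P4ha1, P4ha2, P4ha3), 2 lysyl hydroxylases (Plod1, Plod2) and 5 lysyl oxidases (Lox, Loxl1, Loxl2, Loxl3, Loxl4). A gene was included when the array annotation gave its symbol alone for a probe set. That held for 9 of the 10 genes, with 10 probe sets, among 19938 genes measured this way. Loxl2 had only a probe set that the annotation shares with another gene and was not analysed here. Loxl4 had 2 probe sets of its own, and each other gene had 1.

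RNA came from the plantaris, a calf muscle, of male C57BL/6J mice aged 25 months. The gastrocnemius and soleus had been removed (synergist ablation), which puts their load on the plantaris and makes it grow. Muscles were taken on days 0, 1, 3, 5, 7, 10 and 14. Each day had 2 Affymetrix Mouse Gene 1.0 ST arrays, for which the muscles of 6 animals were pooled by side, left and right. All groups share the strain, sex and age. Animals differ from day to day, the left and right pool of one day are taken here to share animals, and no group is labelled as sham-operated. Surgery and load therefore cannot be told apart, and the p-values measure only the spread between sides and arrays.

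Collagen chains are modified inside the endoplasmic reticulum before they are secreted. Prolyl 4-hydroxylase, a complex of alpha subunits with the beta subunit P4hb, adds the hydroxyl groups to proline that hold the triple helix together, with iron and ascorbate as cofactors. Lysyl hydroxylases act on lysine, and whether the lysine is hydroxylated decides which kind of crosslink can form later. Outside the cell the copper enzymes of the lysyl oxidase family turn lysine and hydroxylysine side chains into aldehydes, which react to form the crosslinks that stiffen collagen and elastin. In muscle most of this work is done by fibroblasts of the connective tissue between the fibres.

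Values are log2 signals as deposited, so a difference of 1 is a doubling of signal. Signals of different genes come from different probes and are not compared with each other. Differences are given with their standard error from limma, a linear model fitted to all genes, with n = 2 arrays per day. A gene is called where limma's p-value, with the Benjamini-Hochberg adjustment across the 19938 genes, is under 0.05. No detection call was used here, so a day 0 signal is not shown to lie above background and a fold change from a dim one may understate the change. In addition, precision is limited by how few arrays each day has.

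Both sides of any one day correlated with each other at r from 0.994 to 0.997 across genes, which are not independent replicates. Day 0 had the most genes whose sides differed by over 0.5, with 522 genes (2.62%), against 122 to 350 on the other days. The median gene stood between -0.14 and 0.04 from day 0 on the later days. Of the 10 muscle fibre markers, all were among the brightest 5% of genes on both day 0 arrays.

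All 9 genes differed among the 7 days by limma's moderated F test (adjusted p from 2.1e-11 for P4ha3 to 7.4e-05 for Loxl4). The same was true of 79.5% of all genes. On day 1, 6 of the 9 were higher than on day 0, as were 22.3% of all genes. On day 3 all 9 were higher (24.1% of all genes), as they were on day 5 (26.4%) and day 7 (26.6%). There were 8 higher on day 10 (25.9%) and 7 on day 14 (22.9%). Lox, Loxl1, Loxl3, Loxl4, Plod1, Plod2 and P4ha3, 7 of the 9, were higher on each of days 3 to 14, as were 16.2% of all genes. Of these, Loxl4 lost its day 10 call under 10 and its day 14 call under 5 of 26 alternative settings. Limma called 0 of the 9 lower than day 0 on any day, also at an unadjusted p under 0.05. Of all genes, 22.6%, 26.6%, 33.7%, 36.3%, 34.3% and 30.5% were lower on days 1, 3, 5, 7, 10 and 14. The median difference of the 9 genes was 0.56, 1.85, 2.26, 2.35, 2.40 and 1.86 in that order of days, against 0.04, -0.07, -0.12, -0.14, -0.13 and -0.11 for all genes. At least 2-fold rises numbered 2 on day 1 (4.92% of all genes), 8 on day 3 (7.59%), and 6 on each of days 5, 7, 10 and 14 (8.79%, 8.57%, 8.1% and 6.06%).

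**Figure D1:**
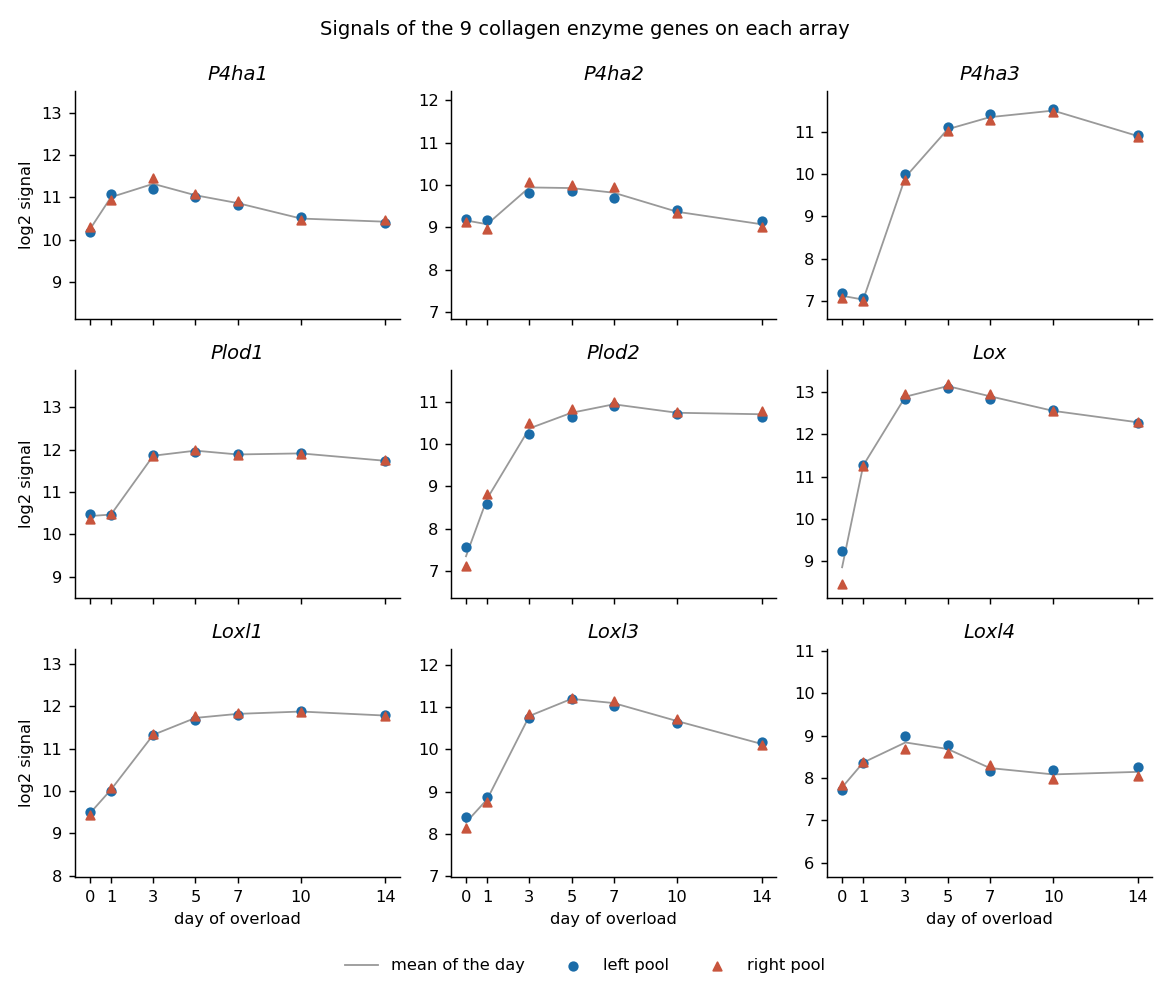
Log2 signal (vertical axis) by day of overload (horizontal axis, days to scale) for the 9 genes, with circles for the left pool, triangles for the right pool and a grey line through the mean of each day. Every panel spans the same number of log2 units, and the widest gap between sides is that of Lox on day 0, at 9.25 on the left and 8.47 on the right.

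The 3 alpha subunits of prolyl 4-hydroxylase followed different courses. P4ha1, the alpha subunit that most cells use, rose early and was back near its day 0 level on day 14. P4ha2 was higher on days 3, 5 and 7, and was not called on days 1, 10 and 14. P4ha3 was not called on day 1 and then rose more than the others, by 4.37 ± 0.08 on day 10, a 20.7-fold difference in signal (adjusted p = 2.5e-11). Its day 0 signals lay below the array median of 7.91 over all probe sets.

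On the left and right arrays P4ha1 had log2 signals of 10.18 and 10.31 on day 0, 11.07 and 10.94 on day 1, 11.19 and 11.45 on day 3, 11.01 and 11.09 on day 5, 10.82 and 10.91 on day 7, 10.53 and 10.47 on day 10, and 10.39 and 10.46 on day 14. Both arrays of every later day lay above both of day 0, and the arrays of days 5 and 1 overlapped. The rise was 0.76 ± 0.09 on day 1 (adjusted p = 2.6e-05) and 1.08 ± 0.09 on day 3 (adjusted p = 9.0e-07). From there P4ha1 came down, with day 7 lower than day 3 by a difference of -0.46 ± 0.09 (adjusted p = 0.00546) and day 14 lower than day 3 by -0.90 ± 0.09 (adjusted p = 1.7e-05). The remaining difference from day 0 was 0.26 ± 0.09 on day 10 (adjusted p = 0.0309) and 0.18 ± 0.09 on day 14 (adjusted p = 0.123). The day 10 call ended when all arrays were given equal medians (0.12 ± 0.10, adjusted p = 0.259). It also ended without the left array of day 0 (0.20, adjusted p = 0.165), the left array of day 10 (0.23, adjusted p = 0.135) or the right array of day 10 (0.29, adjusted p = 0.0648).

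P4ha2, the second catalytic subunit, had 9.20 and 9.13 on day 0, 9.18 and 8.97 on day 1, 9.81 and 10.08 on day 3, 9.86 and 10.00 on day 5, 9.69 and 9.95 on day 7, 9.41 and 9.33 on day 10, and 9.15 and 9.0 on day 14. Days 3, 5 and 7 overlapped one another and stood above every other day, while days 0, 1 and 14 overlapped. The difference from day 0 was 0.78 ± 0.12 on day 3 (adjusted p = 1.1e-04), and day 14 was lower than day 3 by -0.87 ± 0.12 (adjusted p = 1.2e-04). On day 14 P4ha2 was at -0.09 ± 0.12 from day 0 (adjusted p = 0.548).

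P4ha3 had 7.18 and 7.07 on day 0, 7.07 and 7.00 on day 1, 10.01 and 9.85 on day 3, 11.11 and 11.01 on day 5, 11.41 and 11.28 on day 7, 11.53 and 11.47 on day 10, and 10.92 and 10.88 on day 14. Days 0 and 1 were the low days, and 1 array of each had 7.07 after rounding, with day 1 just below day 0. Day 1 was at -0.09 ± 0.08 from day 0 (adjusted p = 0.414). All neighbouring days in the order of its levels were apart. Day 3 stood 2.89 ± 0.08 above day 1 (adjusted p = 3.6e-09), the ninth largest rise of all genes in that step. Day 5 stood a further 1.13 ± 0.08 above day 3 (adjusted p = 1.5e-05). On days 7 and 10 the rise of P4ha3 from day 0 was the seventh largest of all genes. Between day 10 and day 14 it fell by 0.59, with a standard error of 0.08 (adjusted p = 0.00257), and day 14 was still 3.78 ± 0.08 above day 0 (adjusted p = 8.9e-11).

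RefSeq promoter sequences were at hand for 5 of the 9 genes (P4ha1, P4ha2, P4ha3, Plod1 and Loxl4, build GRCm38.p6). Those of the 3 alpha subunits are shown because these genes encode alternative subunits of one enzyme and moved on different days. Each runs 5′ to 3′ on the gene's strand, up to the base before the gene's outermost annotated start. Capitals mark the core of the hypoxia response element, ACGTG or GCGTG on either strand, since P4ha1 and P4ha2 are known targets of the hypoxia-inducible factor. P4ha1 is at chr10:59323046-59323196, P4ha2 at chr11:54100674-54100923 and P4ha3 at chr7:100285270-100285488, all on the plus strand.
P4ha1: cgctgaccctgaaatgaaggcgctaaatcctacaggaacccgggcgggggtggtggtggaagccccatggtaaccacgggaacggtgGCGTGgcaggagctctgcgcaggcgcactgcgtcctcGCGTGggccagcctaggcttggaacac
P4ha2: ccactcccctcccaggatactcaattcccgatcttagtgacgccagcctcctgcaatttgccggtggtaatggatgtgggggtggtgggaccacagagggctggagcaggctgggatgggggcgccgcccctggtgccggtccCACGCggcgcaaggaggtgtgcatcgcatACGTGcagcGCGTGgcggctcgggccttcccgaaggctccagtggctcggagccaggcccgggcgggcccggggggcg
P4ha3: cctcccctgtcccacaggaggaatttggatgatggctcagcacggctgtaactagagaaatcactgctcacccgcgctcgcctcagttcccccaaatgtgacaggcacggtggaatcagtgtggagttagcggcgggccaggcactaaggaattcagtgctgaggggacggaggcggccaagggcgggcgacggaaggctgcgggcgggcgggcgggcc
In the 250 bases before the RefSeq start, P4ha1 and P4ha2 held 3 such cores each, Plod1 and Loxl4 held 1 each and P4ha3 held 0. One of the P4ha1 cores lies beyond the stretch printed. At least 1 core occurs in 38.6% of all 32851 promoters in windows of this length, so a match here is a description of letters and not of a bound site. The AP-1 motif TGACTCA or TGAGTCA, also searched on both strands, occurs in 4.46% of promoters and in 0 of these 5. The TATAAA motif occurs in 12.4% and, among the 5, in that of Plod1.

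**Figure D2:**
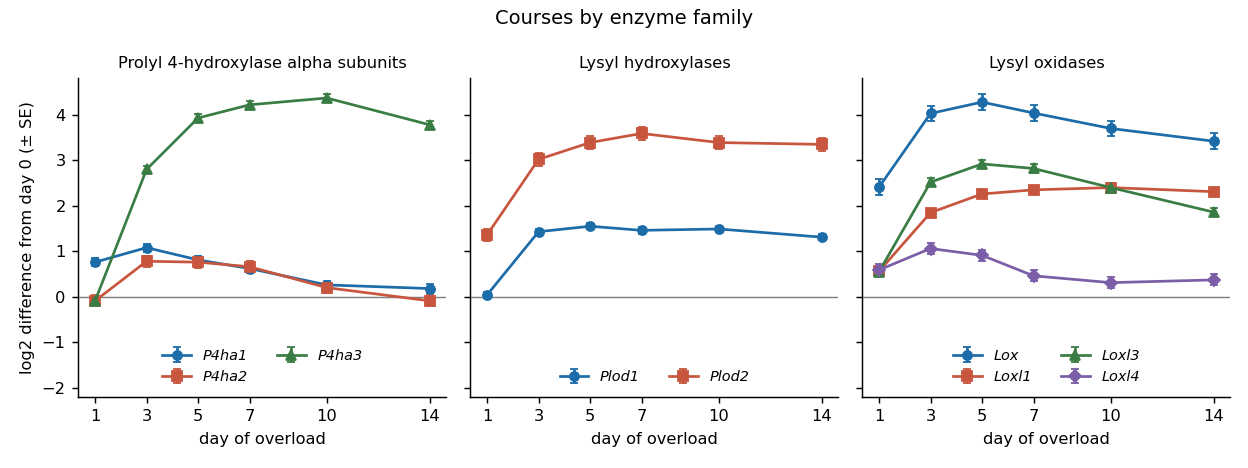
Log2 difference from day 0 with its standard error (vertical axis, bars ± SE, n = 2 arrays per day) by day of overload (horizontal axis) for the prolyl 4-hydroxylase alpha subunits, the lysyl hydroxylases and the lysyl oxidases. P4ha1 and P4ha2 end at 0.18 and -0.09 on day 14 while P4ha3 ends at 3.78.

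Both lysyl hydroxylases of this group rose and stayed high. Plod3, a further lysyl hydroxylase counted with other enzymes below, was higher on each of days 1 to 14. It stood at 1.75 ± 0.08 on day 5 and 1.05 ± 0.08 on day 14. Plod2, which hydroxylates lysines in the telopeptides at the ends of the collagen chains, rose from day 1 on and stood 12-fold above day 0 on day 7. As with P4ha3, its day 0 signals lay below the array median of 7.91 over all probe sets. Plod1, which acts on lysines of the triple helix, was not called on day 1 and was between 2.48-fold and 2.93-fold above day 0 on days 3 to 14.

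The Plod2 signals on the left and right arrays were 7.57 and 7.12 on day 0, 8.59 and 8.82 on day 1, 10.23 and 10.50 on day 3, 10.64 and 10.83 on day 5, 10.89 and 10.98 on day 7, 10.71 and 10.76 on day 10, and 10.63 and 10.77 on day 14. Day 0 and day 1 were each apart from all other days, and days 5, 10 and 14 overlapped. Differences from day 0 were 1.36 ± 0.14 on day 1 (adjusted p = 6.5e-06), 3.02 ± 0.14 on day 3 (adjusted p = 6.8e-09) and 3.59 ± 0.14 on day 7 (adjusted p = 1.6e-09). Day 14 was at 3.35 ± 0.14 (adjusted p = 4.8e-09), and its difference from day 7 of -0.24 ± 0.14 did not pass (adjusted p = 0.298).

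Plod1 gave 10.49 and 10.37 on day 0, 10.46 and 10.47 on day 1, 11.87 and 11.84 on day 3, 11.95 and 12.00 on day 5, 11.90 and 11.87 on day 7, 11.92 and 11.90 on day 10, and 11.72 and 11.75 on day 14. The signal thus had a low level on days 0 and 1, which overlapped, and a high one from day 3. Day 3 was 1.39 ± 0.07 above day 1 (adjusted p = 6.1e-08). Among the later days no tested pair was called: day 5 against day 3 gave 0.13 ± 0.07 (adjusted p = 0.326), day 7 against day 3 gave 0.03 ± 0.07 (adjusted p = 0.753) and day 14 against day 3 gave -0.12 ± 0.07 (adjusted p = 0.202). Both arrays of day 14 lay below those of days 7 and 10. The differences were -0.15 ± 0.07 from day 7 (adjusted p = 0.145) and -0.18 ± 0.07 from day 10 (adjusted p = 0.129).

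Lox, the founding lysyl oxidase of collagen and elastin, had the largest day 1 rise of the 9 genes and reached its highest mean on day 5. Loxl1, which serves elastic fibre upkeep in the mouse, climbed more slowly and held its level to day 14. Loxl3 rose and then came down again, and Loxl4 changed least of the 4 measured lysyl oxidases.

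For Lox the left and right arrays gave 9.25 and 8.47 on day 0, 11.27 and 11.26 on day 1, 12.83 and 12.95 on day 3, 13.10 and 13.18 on day 5, 12.84 and 12.96 on day 7, 12.57 and 12.54 on day 10, and 12.27 and 12.30 on day 14. The sides of day 0 were 0.78 apart and those of every later day at most 0.12, and day 0 lay below all of them. Days 3 and 7 overlapped. The difference from day 0 was 2.41 ± 0.17 on day 1 (5.31-fold, adjusted p = 3.1e-07) and 4.28 ± 0.17 on day 5 (19.4-fold, adjusted p = 2.1e-09). Leaving out 1 array at a time put the day 1 difference between 2.02 and 2.80 and the day 5 difference between 3.89 and 4.67, and the calls held. Lox was lower on day 14 than on day 3 by -0.60 ± 0.17 (adjusted p = 0.0174) and than on day 7 by -0.61 ± 0.17 (adjusted p = 0.0283), and stood 3.42 ± 0.17 above day 0 on day 14 (adjusted p = 1.8e-08).

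Loxl1 had 9.51 and 9.44 on day 0, 10.00 and 10.07 on day 1, 11.32 and 11.34 on day 3, 11.69 and 11.77 on day 5, 11.81 and 11.84 on day 7, 11.89 and 11.87 on day 10, and 11.79 and 11.78 on day 14. No neighbouring days in the order of its levels overlapped, with day 10 highest. It was 0.56 ± 0.07 above day 0 on day 1 (adjusted p = 2.1e-05) and 2.40 ± 0.07 on day 10 (5.28-fold, adjusted p = 1.6e-10). Day 14 was higher than day 3 by 0.45 ± 0.07 (adjusted p = 2.5e-04), and its difference from day 10, -0.10 ± 0.07, did not pass (adjusted p = 0.45).

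Loxl3, a lysyl oxidase required for palate and spine formation in the mouse, had 8.39 and 8.15 on day 0, 8.87 and 8.76 on day 1, 10.73 and 10.84 on day 3, 11.18 and 11.20 on day 5, 11.03 and 11.15 on day 7, 10.61 and 10.72 on day 10, and 10.16 and 10.09 on day 14. Its levels were highest on day 5, and no neighbouring days in their order overlapped. The largest difference was 2.92 ± 0.09 on day 5 (7.56-fold, adjusted p = 4.0e-10). Loxl3 was lower on day 10 than on day 7 by -0.42 ± 0.09 (adjusted p = 0.0412) and lower on day 14 than on day 10 by -0.54 ± 0.09 (adjusted p = 0.00583). On day 14 it was still 1.86 ± 0.09 above day 0 (adjusted p = 1.5e-08).

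The brighter probe set of Loxl4 had 7.72 and 7.84 on day 0, 8.36 and 8.37 on day 1, 8.99 and 8.69 on day 3, 8.77 and 8.60 on day 5, 8.16 and 8.31 on day 7, 8.20 and 7.97 on day 10, and 8.25 and 8.04 on day 14. Day 3 overlapped day 5, and days 7, 10 and 14 overlapped, all above day 0. Both day 0 signals lay below the array median of 7.91 over all probe sets. Its differences from day 0 were 0.59 ± 0.12 on day 1 (adjusted p = 0.00142), 1.06 ± 0.12 on day 3 (adjusted p = 9.2e-06) and 0.46 ± 0.12 on day 7 (adjusted p = 0.00573). Day 14 was lower than day 3 by -0.69 ± 0.12 (adjusted p = 7.8e-04). On days 10 and 14 it stood at 0.31 and 0.37 (adjusted p = 0.0423 and 0.0213), and both calls ended with equal array medians (0.17 and 0.25, adjusted p = 0.216 and 0.0861). The day 10 call also ended without the left array of day 10 (0.20, adjusted p = 0.279) and without any 1 array of day 0 or day 1 (adjusted p from 0.0518 to 0.178). The day 14 call ended without the left array of day 0 (0.31, adjusted p = 0.107) or of day 14 (0.27, adjusted p = 0.142). The other probe set of Loxl4 lay between 6.44 and 7.70 and took the same direction, with 1.09 ± 0.16 on day 3 (adjusted p = 7.3e-05) and 0.33 ± 0.16 on day 10 (adjusted p = 0.0873, both adjusted over 21789 probe sets).

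**Figure D3:**
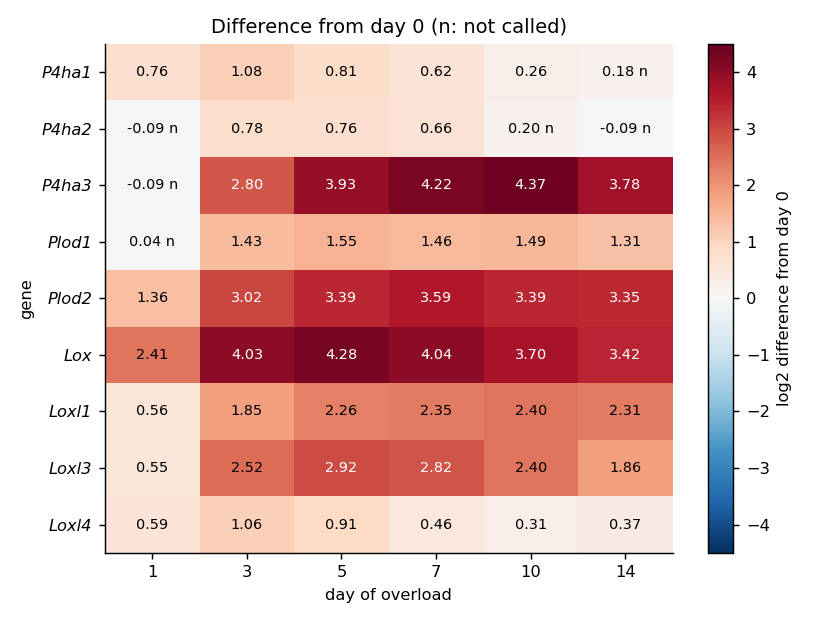
Log2 difference of each day (columns) from day 0 for the 9 genes (rows), by colour and printed value, with n beside those that were not called. Lox passes 4 on days 3, 5 and 7 and P4ha3 on days 7 and 10, while P4ha1, P4ha2 and Loxl4 have no value over 1.08.

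From day 0 to day 1, 6 genes rose, and for Lox, P4ha1 and Loxl4 that step was larger than the next one (2.41 against 1.62 for Lox). All 9 genes were higher on day 3 than on day 1, as were 19.5% of all genes, while 24.7% of all genes were lower. On day 5 against day 3, 3 rose (4.68% of all genes, with 1.9% lower): P4ha3, Loxl1 and Loxl3, of which P4ha3 alone remained called without the right pool of day 5. On day 7 against day 5 limma called 0 of the 9 (0.401% of all genes rose and 0.627% fell), with 1 higher and 1 lower at an unadjusted p under 0.05. On day 10 against day 7, 1 fell, Loxl3 (1% of all genes fell and 0.933% rose), and on day 14 against day 10, 2 fell, Loxl3 and P4ha3 (5.11% of all genes fell and 3.79% rose). The Loxl3 call of day 10 against day 7 was lost on leaving out any single array of days 3, 5, 7, 10 or 14. Without the right array of day 10, P4ha3 alone was called on day 14 against day 10.

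Wider steps were compared too. On day 7 against day 3, Loxl1, Loxl3, Plod2 and P4ha3 were higher (9.71% of all genes) and P4ha1 and Loxl4 were lower (7.45%). That count of 6 was 3 without the left pool of day 3 and 2 without the left pool of day 7, the 2 being Loxl1 and P4ha3. On day 14 against day 3, Loxl1 and P4ha3 were higher (17.4% of all genes), by 0.45 ± 0.07 and 0.97 ± 0.08, and 5 were lower (17.8%), P4ha1, P4ha2, Lox, Loxl3 and Loxl4. Plod1 and Plod2 did not pass, at -0.12 and 0.33. On day 14 against day 7, 5 were lower (10.5% of all genes, with 8.23% higher), Loxl3 most, at -0.96 ± 0.09 (adjusted p = 5.2e-05). The others were P4ha2, Lox, P4ha1 and P4ha3, and the count was 3 without the right pool of day 7 or the left pool of day 14, namely Loxl3, P4ha2 and P4ha3.

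**Figure D4:**
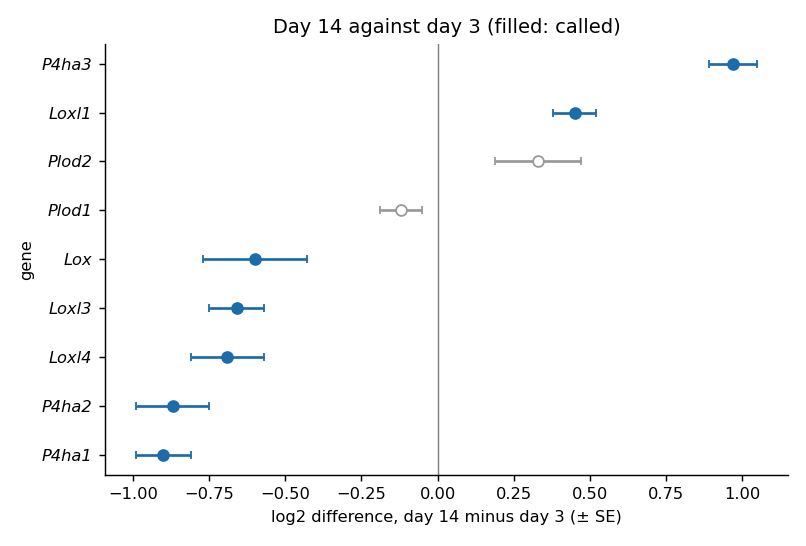
Log2 difference of day 14 minus day 3 (horizontal axis, bars ± SE, n = 2 arrays per day) for the 9 genes (vertical axis, in order of the difference), filled where called. P4ha3 is highest at 0.97 and P4ha1 lowest at -0.90.

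Across the 14 arrays, of which the 2 of a day are taken to share their animals, 7 day levels underlie every correlation that follows. Loxl1, Plod1, Plod2 and P4ha3 correlated with one another at r from 0.94 to 0.99. They were not set apart, as Loxl3 correlated with them at 0.92 to 0.97 and Lox at 0.82 to 0.96. P4ha1 correlated with Loxl4 at 0.87 and with P4ha3 at 0.10. P4ha2 correlated most with Loxl3, at 0.76. These are descriptions of shared courses.

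Outside the family the genes most like each one, by Pearson's r over the 14 arrays, were as follows. For Lox they were Vim (0.997), Gnai2 (0.995) and Sting1 (0.994), and for Loxl1 they were Cthrc1 (0.997), Adcy7 (0.995) and Atp8b2 (0.995). Nrm, Glmp and Tcf19 were nearest to Loxl3 (0.991 to 0.994), and Ifih1, Nmi and Sp100 to Loxl4 (0.949 to 0.959). Plod1 was most like Prcp, Apoe and C1qc (0.993 to 0.995) and Plod2 most like Anxa5, Kdelr3 and Slc36a4 (0.992 to 0.996). The nearest to P4ha1 were Galnt7, Pa2g4 and Arhgap4 (0.966 to 0.974), and to P4ha2 they were Ndc1, Exo1 and Cdc45 (0.965 to 0.982). For P4ha3 they were Galnt10, Mrc2 and Dclk1 (0.995 to 0.996), of which Mrc2 encodes a receptor that takes up collagen.

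The collagen chains are the substrates of these enzymes. On day 1, 4 of 18 chains were higher and 5 lower, shares near those of all genes (22.3% and 22.6%). The median was 0.01 against 0.04 for all genes. On day 3, 15 were higher (24.1% of all genes), and all 18 on each of days 5, 7, 10 and 14 (22.9% to 26.6%). The median on day 10 was 2.30 against -0.13 for all genes. Col12a1, a chain of a collagen that binds to fibrils, rose by 3.95 ± 0.20 on day 10, Col8a1 by 3.52 ± 0.09 on day 14 and Col1a1, the main chain of type I collagen, by 3.29 ± 0.08 on day 10. Col1a1 stood at -0.19 ± 0.08 on day 1 (adjusted p = 0.0718), the day on which Lox was at 2.41.

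Of 15 other enzymes and chaperones of collagen in the endoplasmic reticulum, 6 were higher and 3 lower on day 1 (22.3% and 22.6% of all genes). On day 7, 11 were higher and 3 lower (26.6% and 36.3%), with a median of 1.47 against -0.14 for all genes. Crtap, a partner of prolyl 3-hydroxylase, rose by 2.45 ± 0.15 on day 10, P3h3, a prolyl 3-hydroxylase family gene, by 2.14 ± 0.10 on day 10, and Creb3l1, a transcription factor of collagen secretion, by 2.31 ± 0.11 on day 10. The removal of propeptides outside the cell was represented by 7 genes. Of these, 5 were higher and 2 lower on each of days 3, 5, 7, 10 and 14. Across those days 22.9% to 26.6% of all genes were higher and 26.6% to 36.3% lower. Bmp1, the procollagen C-proteinase, rose by 2.15 ± 0.07 on day 10, its enhancer Pcolce by 1.93 ± 0.08 on day 7 and Adamts14, an N-proteinase, by 1.52 ± 0.08 on day 10.

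Of 13 measured partners in elastic fibres and crosslinking, 2 were higher and 7 lower on day 1 (22.3% and 22.6% of all genes, median -0.31). On day 14, 12 were higher (22.9%), with a median of 1.77 against -0.11 for all genes. Postn, which brings lysyl oxidase's activator Bmp1 to the matrix, rose by 4.25 ± 0.19 on day 10, Mfap2, a microfibril protein, by 3.25 ± 0.10 on day 10 and Fbn2, a fibrillin, by 2.98 ± 0.13 on day 10. Of 8 proteoglycans that bind fibrils, 7 were lower on day 1 (22.6% of all genes), with a median of -1.12. All 8 were higher on day 14 (22.9%), with a median of 1.70. Aspn was at -1.54 ± 0.12 on day 1 (adjusted p = 5.4e-07) and 2.62 ± 0.12 on day 10, while Lum and Kera reached 2.39 ± 0.13 and 2.35 ± 0.15 on day 14.

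**Figure D5:**
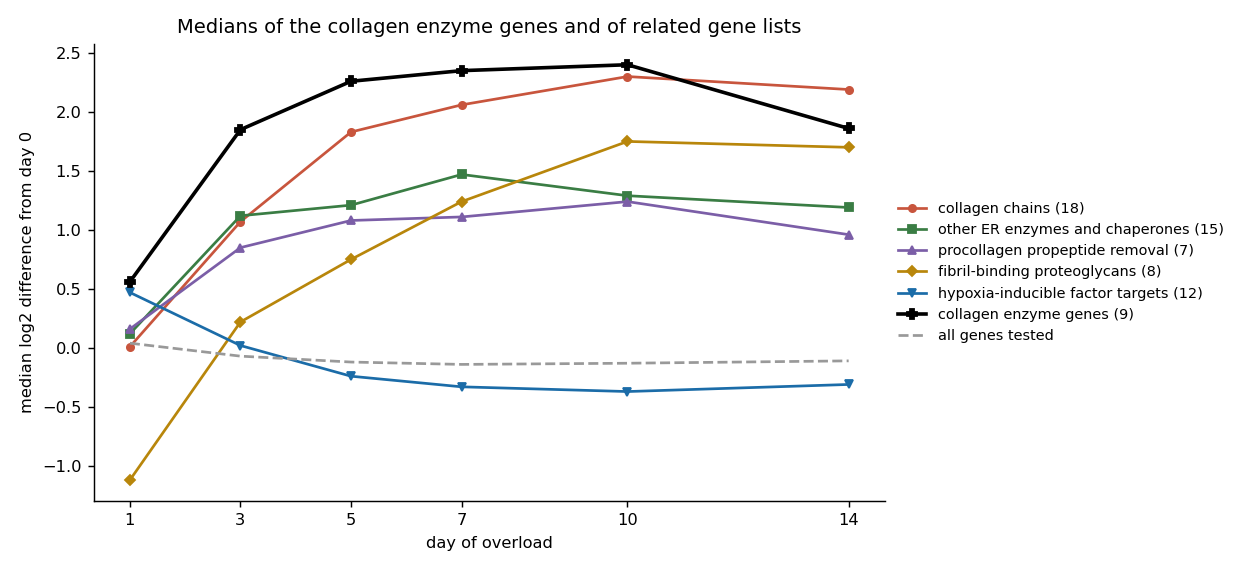
Median log2 difference from day 0 (vertical axis) by day of overload (horizontal axis) for the 9 collagen enzyme genes, 5 related gene lists (number of measured genes in brackets) and all genes tested. On day 1 the collagen enzymes are at 0.56 and the collagen chains at 0.01, and on day 10 they are at 2.40 and 2.30.

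Of 10 genes of copper and ascorbate supply, 4 were higher and 1 lower on day 1, where 22.3% and 22.6% of all genes were, and the median was 0.14 against 0.04 for all genes. On day 3, 5 were higher and 0 lower (24.1% and 26.6% of all genes, median 0.16 against -0.07). On day 10, 6 were higher and 2, Atp7b and Gulo, were lower (25.9% and 34.3% of all genes). The day 0 means of Atp7b and Gulo, 7.19 and 7.18, lay below the array median of 7.91 over all probe sets. Atp7a, the pump that loads copper into lysyl oxidases, rose by 0.82 ± 0.10 on day 3, the copper chaperone Atox1 by 0.98 ± 0.09 on day 7 and the copper importer Slc31a1 by 0.83 ± 0.09 on day 5. Of other oxygen-sensing and related hydroxylases, 5 of 7 were lower on day 1, as were 22.6% of all genes, and 6 of 7 on day 10, as were 34.3% (median -0.62 against -0.13 for all genes). Egln1, a prolyl hydroxylase that marks the hypoxia-inducible factor for destruction, fell by 1.40 on day 10, with a standard error of 0.09, and Hif1an fell by 1.36 on day 3, with a standard error of 0.11. On day 1 the other 2 were Egln3, which was higher, and 1 gene that was not called. Egln3 was at 1.20 ± 0.10 on day 1 and 0.74 ± 0.10 on day 3, and was lower than day 0 on days 7, 10 and 14.

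Of 12 targets of the hypoxia-inducible factor, 7 were higher on day 1 (22.3% of all genes), with a median of 0.47 against 0.04 for all genes. On day 14, 1 was higher (22.9%) and 8 were lower (30.5%), with a median of -0.31 against -0.11. Their courses differed, and Car9, carbonic anhydrase 9, was at 0.58 on day 1 and 1.22 on day 3, both called. Slc2a1, the glucose transporter GLUT1, was at 2.75 ± 0.08 on day 1 and -0.14 ± 0.08 on day 14 (adjusted p = 0.139 on day 14). Adm, adrenomedullin, was at 2.33 ± 0.09 on day 1 and 0.42 ± 0.09 on day 14, and Hk2, hexokinase 2, was at 0.93 ± 0.16 on day 1 and -1.66 ± 0.16 on day 10. Of 9 measured genes of TGF-beta ligands and response, 6 were higher on every one of days 1 to 14, namely Ccn2, Ltbp2, Skil, Tgfb1, Tgfbi and Thbs1. Over days 3 to 14 alone the same 6 were higher on each day, as were 16.2% of all genes. Smad7, an inhibitor of the pathway, was higher on day 1 and lower on day 14 (0.51 and -0.52), Tgfb3 was lower on day 1 and higher on day 14 (-0.99 and 0.81), and Tgfb2 was lower on days 3, 5 and 7. Among the largest differences were Thbs1 at 2.50 ± 0.18 on day 1, Ltbp2 at 2.36 ± 0.10 on day 5 and Tgfbi at 2.35 ± 0.11 on day 3.

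In whole muscle a change in the number of cells and a change in RNA per cell cannot be told apart. Averaged over 10 fibroblast markers, array means of log2 signal were 10.32 to 10.40 on day 0, 9.73 to 9.80 on day 1, 10.68 to 10.78 on day 5 and 11.29 to 11.35 on day 14. On day 1, when 6 of the collagen enzymes were higher, 8 of those markers were lower and 1 was higher (22.6% and 22.3% of all genes). Day 5 had 5 higher and 2 lower (26.4% and 33.7%), and day 14 had 8 higher and 1 lower (22.9% and 30.5%). The 6 tendon markers averaged 9.55 to 9.94 on day 0, 9.11 to 9.15 on day 1 and 11.53 to 11.57 on day 14. Of these markers, 2 were higher and 4 lower on day 1, and all 6 were higher on day 14. For 10 macrophage markers the range was 8.85 to 9.26 on day 0 and 10.87 to 10.98 on day 1. It was 11.83 to 11.88 on day 3 and 10.76 to 10.88 on day 14. All 10 were higher on each of days 3 to 14, as were 16.2% of all genes. The 10 muscle fibre markers averaged 13.93 to 13.96 on day 0 and 13.12 to 13.43 on day 5. Some fibroblast and tendon markers also belong to the proteoglycan list above, among them Lum and Kera, so these readouts share genes. The part of these cells in the courses of the collagen enzymes was not tested.

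Right and left pools did not differ for any of the 9 genes by limma with the day as a block (0 called of 9, and 0% of all genes), with 1 of the 9 at an unadjusted p under 0.05. That gene was P4ha3, lower on the right, at -0.10 ± 0.03 (limma adjusted p = 0.399).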

How the data were processed

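Each array held biotin-labelled cDNA of pooled RNA, where the design text gives an RNA input of 100 ng and the labelling protocol gives 250 ng. What the authors deposited is a log2 signal for each probe set, already normalized. The sources used here do not give the method. The submitters' processing notes name Partek, without a version. Of 35557 probe sets 21789 had 1 gene symbol, 1621 several and 12147 none. For 999 genes with more than 1 probe set, the one with the highest mean stood for the gene. No filter was applied. The array annotation states no build, so the only coordinates given are those of the RefSeq promoters.

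Days were compared with limma 3.58.1 in R 4.3.3 over all 14 arrays (7 residual degrees of freedom, prior 4.95) in 14 comparisons between days, with a moderated F test over all days and a test of right against left. P-values are two-sided. The procedure was tested on simulated data. The genes and lists were chosen with earlier results of these data known. Named genes are the 9 collagen enzymes, the 3 genes of a list with the largest called difference from day 0 on any day, and the 3 genes most correlated with each enzyme, predicted genes left out. Other list genes named (Plod3, Car9, Smad7, Tgfb1, Tgfb2, Tgfb3, Ccn2, Skil, Atp7b, Gulo) were chosen after their values were seen. Arrays set to an unchanged median gene were an alternative chosen after seeing the data.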

Additional observations from a re-analysis of the deposited data

How the results depend on the processing

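Calls against day 0 moved little, except those of Loxl4 on days 10 and 14 and of P4ha1 on day 10. These were lost under 10, 5 and 7 of the 26 alternatives, in that order. Of 1404 differences of the 9 genes from day 0, recomputed under 26 alternatives, 1365 kept their direction and their side of the threshold. Part of this agreement was fixed in advance, since many alternatives could not move the difference itself. Among them were leaving out an array of neither day compared, the side as a replicate block and the stricter thresholds. For genes with 1 probe set, averaging probe sets could not move it either. There were 33 that lost their call, 2 that gained one (P4ha2 on day 10 at 0.33 and P4ha1 on day 14 at 0.29, with the median gene unchanged) and 4 that changed sign, none of them called. The 4 were Plod1 on day 1 at -0.01 with the median gene unchanged and from -0.02 to 0.10 with 1 array left out, P4ha2 on day 1 from -0.20 to 0.02 with 1 array left out, and P4ha2 on day 14 at 0.02 with the median gene unchanged. Requiring a 2-fold difference left 2 genes on day 1 against day 0, 1 on day 5 against day 3, 1 on day 7 against day 3 and 0 on days 10 against 7, 14 against 10, 14 against 3 and 14 against 7. With 1 array left out, day 5 against day 3 kept 1 to 3 genes, day 10 against day 7 0 to 2, day 14 against day 10 1 to 3, day 7 against day 3 2 to 6 and day 14 against day 7 3 to 5. Day 10 against day 7, with 1 gene, had 3 without the dimmest 25% of genes, with an intensity trend and robust estimation, and with array weights (Loxl3, P4ha1 and P4ha2). It had 0 with quantile normalization, with the side as a replicate block, at an adjusted p under 0.01 and with only the 4 arrays compared. The replicate block changed no other count of called genes. Left and right are sides of different animals on different days, so the side pairs no samples across days. The cause of these changes was not tested. With 2 arrays per day, leaving out 1 array ended calls as far from 0 as that of Lox on day 14 against day 7, at -0.61.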

Other observations

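Collagen and other matrix proteins can also be crosslinked by transglutaminases, which join glutamine to lysine without lysyl oxidase. Of 4 transglutaminase genes 3 were higher on day 1 (22.3% of all genes were) and 1 was not called, with a median of 1.49 against 0.04 for all genes. Tgm1 was at 2.29 ± 0.14 on day 1 and 0.18 ± 0.14 on day 14 (limma adjusted p = 8.9e-08 and 0.304), and Tgm2, tissue transglutaminase, at 1.42 ± 0.07 and 0.30 ± 0.07 (adjusted p = 1.8e-08 and 0.0043). F13a1, the coagulation factor XIII subunit made by macrophages, was highest on day 3, at 2.40 ± 0.11 (adjusted p = 4.4e-09). On day 10 the list median was 0.12 and 1 of the 4, F13a1, was called higher, as were 25.9% of all genes. F13a1 was higher on each of days 1 to 14. Lox stood at 2.41 on day 1 and 3.70 on day 10. The median of the 9 collagen enzymes on day 10 was 2.40, with P4ha1, P4ha2 and Loxl4 at 0.26, 0.20 and 0.31. These levels are set side by side without a test of the difference.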
